A study of Mus musculus with 2 samples.

Results

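The IL-17, IL-22 and IL-23 axis was taken here as 8 genes chosen by name from the 32291 genes of the deposited table, and all 8 were found. These were the cytokines *Il17a*, *Il17f* and *Il22*, the receptor *Il23r*, the cytokine subunits *Il23a* and *Il12b*, and the receptors *Il17ra* and *Il22ra1*. They were followed over 11 annotated cell types of colitis-associated tumors of the mouse colon, in 1 library per genotype.

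Tumors were induced in both genotypes with azoxymethane (AOM, 10 mg/kg, injected at an age of 6 to 10 weeks), a carcinogen, and dextran sodium sulfate (DSS), which injures the colonic mucosa. DSS was given in water at 2.5% in the first and second cycle and at 2% in cycle 3, each for 5 days, with 16 days of water without DSS between. AOM was injected before the first and again before the second cycle, and mice were sacrificed on day 110 after the first injection. The library labelled Mir34a_F/F came from mice with floxed *Mir34a* alleles and no Cre, and the library labelled Mir34a_Mye_KO from mice that also carried *LysM-Cre*, which deletes floxed alleles in myeloid cells. T cells and epithelial cells are therefore not cells targeted by the deletion. Each library combined 6 to 8 tumors of 3 mice, and 30000 cells were loaded.

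Since each genotype has 1 library of pooled mice, differences between the genotypes have no test, and the cells of a library do not stand for replicates. A level is the UMIs (unique molecular identifiers, which count captured mRNA molecules) of a gene per 1000000 UMIs of the same cells, written CPM. All intervals are 95% intervals that cover counting error only. Where 2 values stand together, the first belongs to the library labelled Mir34a_F/F and the second to the library labelled Mir34a_Mye_KO. A log2 ratio is the level in the library labelled Mir34a_Mye_KO over that in the library labelled Mir34a_F/F.

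The libraries held 20312 and 18571 cells with a median of 4787 and 7716 UMIs, and the median depth was higher in the library labelled Mir34a_Mye_KO in 11 of 11 cell types, by 1.11-fold in endothelial cells to 5.69-fold in B cells. The libraries shared 96 cell barcodes. Of the fixed markers, 5 of 5 were highest in their own cell type in both libraries, except for basophils with 3 of 5. A further 6 genes mark natural killer and innate lymphoid cells, which have no label of their own and could lie among the T cells. Of these, *Klrb1c*, *Gzma*, *Eomes* and *Gata3* were highest in T cells in both libraries, and *Ncr1* and *Il1rl1* were highest in mast cells or basophils. The targeted gene was checked in macrophages. The feature for the primary *Mir34a* transcript had 133 and 462 UMIs there (log2 ratio 1.03, 0.74 to 1.31), which goes against the labels unless the feature lies outside the deleted part, and its position is not given in the sources used here. *Lyz2*, which the Cre insertion of *LysM-Cre* disrupts, had 3892 and 1379 UMIs (log2 ratio -2.27), which runs with the labels. A feature that joins the names of Cre and *Lyz2* had 451 and 172 UMIs (log2 ratio -2.16, -2.42 to -1.91) and was thus higher in the library labelled as without Cre. Its ratio was close to that of *Lyz2*, also in neutrophils (-1.46 beside -1.60), and which part of it the UMIs match was not tested. A feature for Cre alone had 0 UMIs in both libraries. These values do not all run with the labels, and the libraries are named by their labels.

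IL-23 is a heterodimer of a p19 subunit, encoded by *Il23a*, and a p40 subunit, encoded by *Il12b* and shared with IL-12. Myeloid cells are its best known source, and it acts on T cells and innate lymphocytes that carry the IL-23 receptor. These cells can make IL-17A, IL-17F and IL-22. IL-17A and IL-17F signal through a receptor that contains *Il17ra*, which many cell types express, whereas the IL-22 receptor subunit *Il22ra1* is found mainly on epithelial cells, where both pathways induce chemokines and antimicrobial proteins.

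The genes lie on 5 chromosomes of GRCm38 (mm10). *Il17a* (chr1:20730905-20734496, plus strand) and *Il17f* (chr1:20777146-20790617, minus strand) are neighbours with a gap of 42.6 kb. *Il22* is at chr10:118204942-118210047, 231.0 kb from *Ifng*, *Il23a* at chr10:128296139-128298752, *Il12b* at chr11:44400063-44414033, *Il23r* at chr6:67422932-67491855, *Il17ra* at chr6:120463247-120487559 and *Il22ra1* at chr4:135728172-135752140. AGGTCA is a half-site that many nuclear receptors are known to bind. These letters, searched on both strands in the RefSeq promoter windows from 250 bases before to 50 bases after the start site (GRCm38), were present in 3 of the 6 windows available for these genes and in 16.3% of 32851 promoters. The matches are shown because *Il17a*, *Il17f* and *Il23r* are 3 of the 4 members found mainly in T cells, while the window of the fourth, *Il22*, has no match. Capitals mark the half-site, each sequence is written on the strand that reads AGGTCA, and a match does not show a bound site. The match of *Il17a* and the *Il23r* match at -229 lie on the strand opposite to the gene. Each position is that of the first base of the match as read along the strand of the gene. The RefSeq start of *Il17f* lies inside the GENCODE gene given above, so its window does too.
Il17a, first base of the match at -120 from the start site, chr1:20730773-20730802: catcctcaaatgAGGTCAgcacagaaccac
Il17f, at -58, chr1:20784311-20784340: cagtcagtaaggAGGTCAgtggaaacaggg
Il23r, at -229, chr6:67492067-67492096: aagaagtcaaacAGGTCAatggtggtcatg
Il23r, at -66, chr6:67491904-67491933: aaatgaaaatgtAGGTCAgggctctgctga

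The deleted gene encodes miR-34a, and its mature sequence is given because 1 member carries a match to its seed (bases 2 to 8, in capitals). The match, 7 bases complementary to the seed and also in capitals, was found in 1 of the 8 annotated 3′ UTRs, that of *Il23r*, where it starts at base 77 of 433. Of all 21092 genes with an annotated 3′ UTR, 14.3% have such a match, so a match in 1 gene is a description of the sequence and not of regulation.
miR-34a-5p, chr4:150068473-150068494: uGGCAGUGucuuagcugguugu
Il23r, site in the 3′ UTR: aagaagtataagtaCACTGCCat

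*Il17a*, the best known cytokine of the IL-17 family, was found mainly in T cells. In the library labelled Mir34a_F/F, T cells held 10341 UMIs of *Il17a*, or 771 CPM (756 to 786). In the library labelled Mir34a_Mye_KO they held 21223 UMIs, or 885 CPM (873 to 897). These were 78.2% and 86.1% of all *Il17a* UMIs of the libraries, and the level in T cells was 7.96- and 12.7-fold that in neutrophils, the next cell type with over 300 cells in each library. Of the 18581 genes with at least 100 UMIs over all cells, 15.7% were likewise highest in T cells in both libraries, among the 7 cell types with over 300 cells in each. The shares of genes highest in other cell types, given below, were counted in the same way. The log2 ratio between the libraries was 0.20 (0.16 to 0.23) in T cells.

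The *Il17a* UMIs were concentrated in few T cells. Of 3088 and 2649 T cells, 745 (24.1%) and 794 (30.0%) had a UMI of *Il17a*, and the 10 cells with most UMIs held 17.2% and 12.6% of all UMIs of the gene in T cells. The 245 and 343 T cells with 10 or more UMIs, a limit chosen after the values were seen, held 86.3% and 94.5%, and the richest cell had 348 and 371. T cells had a median depth of 3548 and 8043 UMIs. After thinning to 1000 UMIs per cell, the shares of T cells with *Il17a* were 15.8% and 16.3%, so most of the difference between the unthinned shares was not seen at equal depth.

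Most of these rich cells had other mRNAs of T cells. Of them, 91.4% and 95.3% had *Cd3e*, a subunit of the T cell receptor complex, 42.9% and 62.7% had *Cd4* and 21.2% and 19% had *Trdc*, the constant gene of the delta chain. *Il23r* was found in 61.2% and 72.3%, and *Il1r1*, the IL-1 receptor, in 57.1% and 84.0%. *Ncr1*, a marker of natural killer cells and some innate lymphoid cells, was found in 0 and 3 of them. It was sparse in all T cells, at 3.06 and 9.22 CPM, so its near absence here cannot tell cell types apart.

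In epithelial cells, which served as the background for these lymphocyte genes, 6.27% and 9.93% of cells had a UMI of *Il17a* at a median depth of 5315.5 and 6623, and 1.27% and 2.11% after thinning. The level there was 16.9 and 13.3 CPM. Outside T cells, 39 and 31 cells had 10 or more *Il17a* UMIs, and all of them also had a UMI of a T cell receptor or CD3 gene (*Cd3d*, *Cd3e*, *Cd3g*, *Trac*, *Trbc2* or *Trdc*), as had 16.7% and 16.4% of all epithelial cells. In 60 fibroblasts of the library labelled Mir34a_Mye_KO, for example, 1 cell held 148 of 169 *Il17a* UMIs. The part of free RNA and of droplets with more than 1 cell in these values was not tested.

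*Il17f*, which encodes a cytokine that can pair with IL-17A, had 2505 and 2901 UMIs in T cells. Its level was 187 (180 to 194) CPM in the library labelled Mir34a_F/F and 121 (117 to 125) in the library labelled Mir34a_Mye_KO. The log2 ratio of -0.63 (-0.70 to -0.55) was thus opposite in sign to that of its neighbour *Il17a*. A UMI was found in 11.2% and 10.7% of T cells, 6.29% and 4.47% after thinning, against 1.16% and 0.872% of epithelial cells, 0.237% and 0.165% after thinning. T cells held 79.0% and 85.3% of all *Il17f* UMIs.

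*Il22*, a cytokine of the IL-10 family that acts on epithelial cells, was the most concentrated of the 3. It had 2467 and 3332 UMIs in T cells, or 184 (177 to 191) and 139 (134 to 144) CPM, with a log2 ratio of -0.40 (-0.48 to -0.33). Only 160 (5.18%) and 187 (7.06%) T cells had a UMI, 2.86% and 2.54% after thinning. The 10 richest cells held 53.6% and 54.5% of the UMIs, so a few cells make up much of each sum. The ratio stayed below 0 in 7 of 8 alternatives, among them the one without these cells, and was 4.27 among cells with own markers only. The richest had 391 and 441 UMIs. Epithelial cells had a UMI in 1.20% and 1.76%, and 0.137% and 0.392% after thinning. The level in T cells was 21.8-fold that in B cells and 26.2-fold that in macrophages, the next cell types in the 2 libraries. Reads of *Il22* are uncertain in part because *Iltifb* is a near-identical copy, and that copy had 24 and 89 UMIs in T cells with *Il22* against 14 and 18 in those without.

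*Il23r*, the receptor subunit specific to IL-23, had 1545 and 4568 UMIs in T cells, or 115 (110 to 121) and 191 (185 to 196) CPM. Its log2 ratio of 0.73 (0.64 to 0.81) was the highest among the members in T cells, and it was spread more evenly than the cytokines, with 8.09% and 9.54% of its UMIs in the 10 richest cells. A UMI was found in 19.3% and 28.8% of T cells, against 1.42% and 2.15% of epithelial cells. After thinning, the shares in T cells were 7.62% and 11.5%, against 0.264% and 0.319% of epithelial cells. T cells held 81.7% and 86.0% of all *Il23r* UMIs and had 17.4- and 13.2-fold the level of neutrophils.

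**Figure D1:**
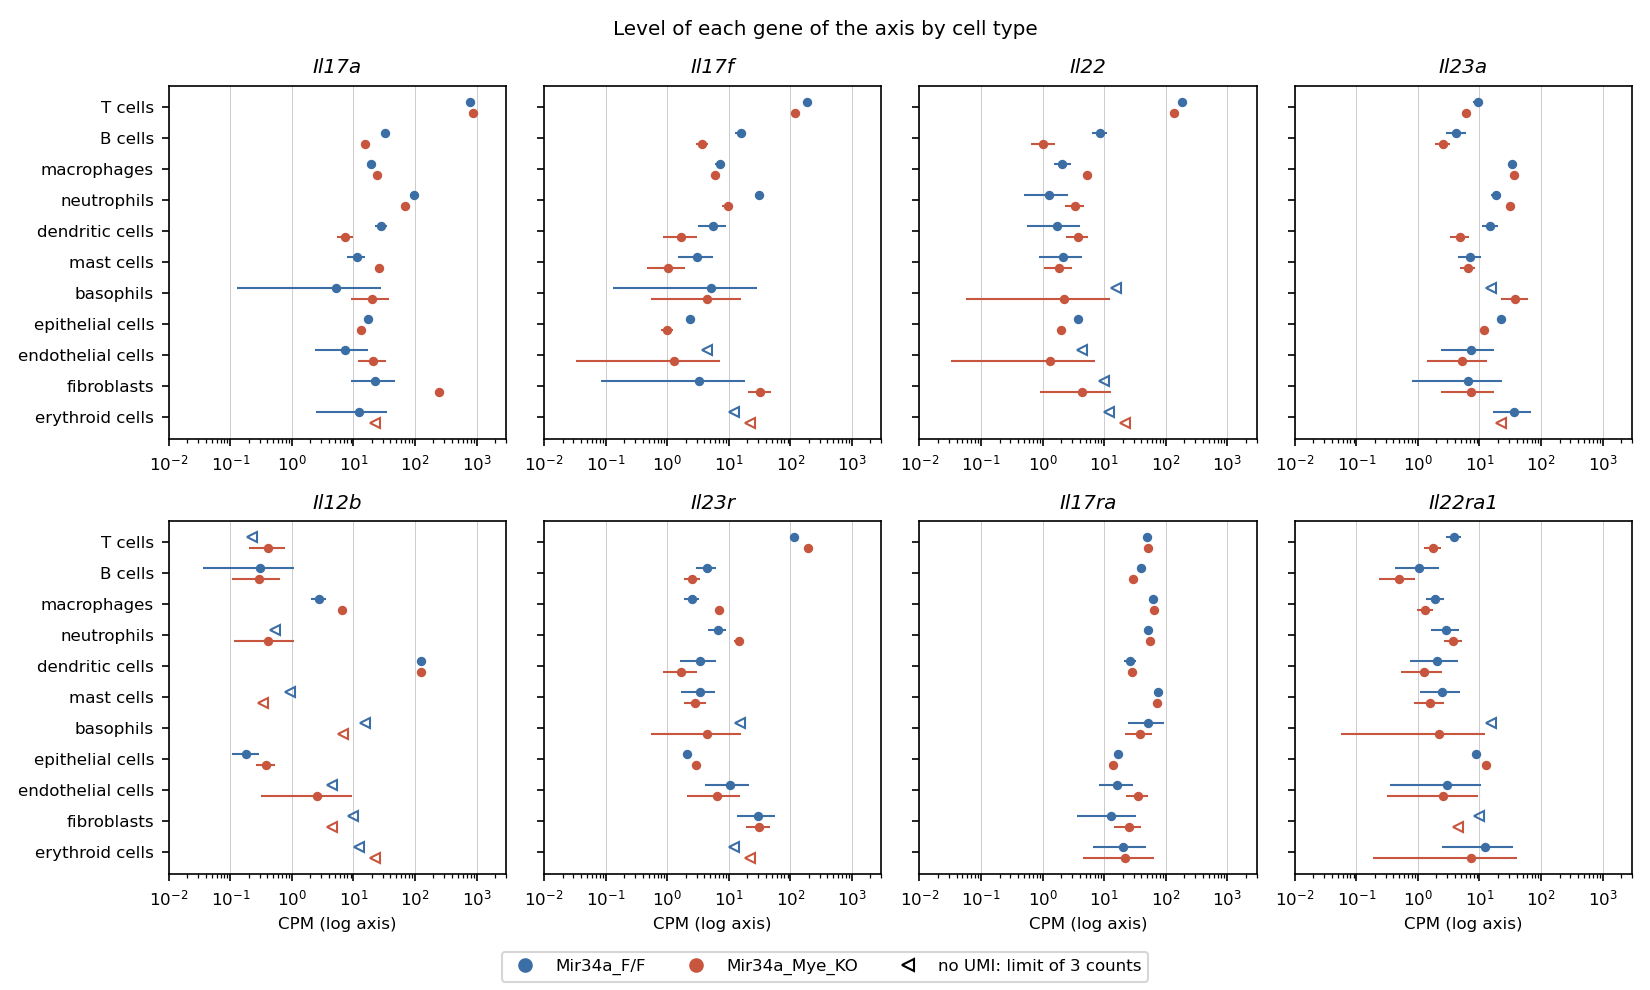
Level of the 8 genes in each annotated cell type, in CPM on a log axis, for the library labelled Mir34a_F/F (blue) and the library labelled Mir34a_Mye_KO (red), with bars for the 95% interval of counting error and open triangles at 3 counts where no UMI was found. *Il17a*, *Il17f*, *Il22* and *Il23r* sit highest in T cells, *Il12b* in dendritic cells at 126 and 127, and *Il22ra1* in epithelial cells at 8.73 and 13.0 among the cell types with over 300 cells, whereas *Il17ra* spans a narrow range.

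T cells were then split by the markers detected in them, which gives sets of cells and not cell types, since a deeper cell is more likely to show a marker. Cells with *Trdc* and without *Cd4* and *Cd8a* or *Cd8b1* numbered 176 and 156. *Il17a* reached its highest level there, at 1987 (1898 to 2080) and 1772 (1707 to 1839) CPM, and 54.5% and 62.2% of these cells had a UMI. T cells with *Cd4* (600 and 763, after cells with *Foxp3* were set apart) followed with 1237 and 1562 CPM in 43.3% and 44.8% of cells. The *Trdc* cells made up 5.70% and 5.89% of T cells and held 17.9% and 13.3% of the *Il17a* UMIs of T cells, and the *Cd4* cells held 36.6% and 58.8%. Cells with *Cd3d*, *Cd3e* or *Cd3g* and none of the other markers (1007 and 501) held 39.9% and 21.2%, at 957 and 1062 CPM in 27.0% and 34.5% of cells.

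Cells with *Foxp3*, the factor of regulatory T cells, held *Il17a* at 85.3 and 196 CPM, in 11% and 16.1% of 465 and 598 cells. Cells with *Cd8a* or *Cd8b1* held 193 and 20.5 CPM, in 8.65% and 11.7% of 208 and 188 cells. In the latter the level but not the share of cells was higher in the library labelled Mir34a_F/F. T cells without a UMI of any of these markers or of *Cd3d*, *Cd3e* or *Cd3g* (624 and 426) had 51.1 and 76.2 CPM.

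The split was different for *Il22*. Cells with only *Cd3* genes had 328 (311 to 345) and 322 (306 to 340) CPM, *Cd4* cells had 205 and 184, and *Trdc* cells had 61.3 and 174, the last from 8 and 7 cells. *Cd8* cells had 137 and 2.73 CPM from 5 and 3 cells (log2 ratio -5.65, -7.12 to -4.50), and *Foxp3* cells 80.4 and 30.2 from 8 and 14 cells. In T cells without any marker, *Il22* had 11 and 24 UMIs, or 7.40 and 11 CPM. *Ncr1* had no UMI in the 44 and 45 T cells with 10 or more UMIs of *Il22*, but it was sparse in all T cells (3.06 and 9.22 CPM), so its absence here cannot tell cell types apart. Of these cells, 86.4% and 97.8% had *Cd3e* and 43.2% and 71.1% had *Cd4*, but 4.55% and 6.67% had *Trdc*.

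*Il23r* was found in *Trdc*, *Cd4* and *Cd3*-only cells. Its level was 224 and 282 CPM in *Trdc* cells, in 70 of 176 and 78 of 156 of them, and 159 and 253 in *Cd4* cells, in 32.3% and 41.3%. Cells with only *Cd3* genes had 125 and 228 CPM and held 34.8% and 21.1% of its UMIs in T cells. *Foxp3* cells had 71.2 and 134 CPM, and *Cd8* cells the lowest level at 15.6 and 31.4. T cells without a UMI of any marker also held *Il23r*, with 120 and 243 UMIs (log2 ratio 0.47, 0.15 to 0.80). The log2 ratio between the libraries was above 0 in each of these sets, from 0.34 (0.10 to 0.58) in *Trdc* cells to 1.01 (0.27 to 1.80) in *Cd8* cells.

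The ratios of the cytokines differed in sign between the sets. *Il17f* had a log2 ratio of 1.07 (0.84 to 1.3) in *Trdc* cells, -0.47 (-0.59 to -0.36) in *Cd4* cells and -2.46 (-2.68 to -2.26) in cells with only *Cd3* genes. *Il17a* had -0.17 (-0.25 to -0.08), 0.34 (0.28 to 0.39) and 0.15 (0.09 to 0.21) in the same sets. These intervals hold only counting error, and *Il17f* was found in 29 and 25 *Trdc* cells.

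**Figure D2:**
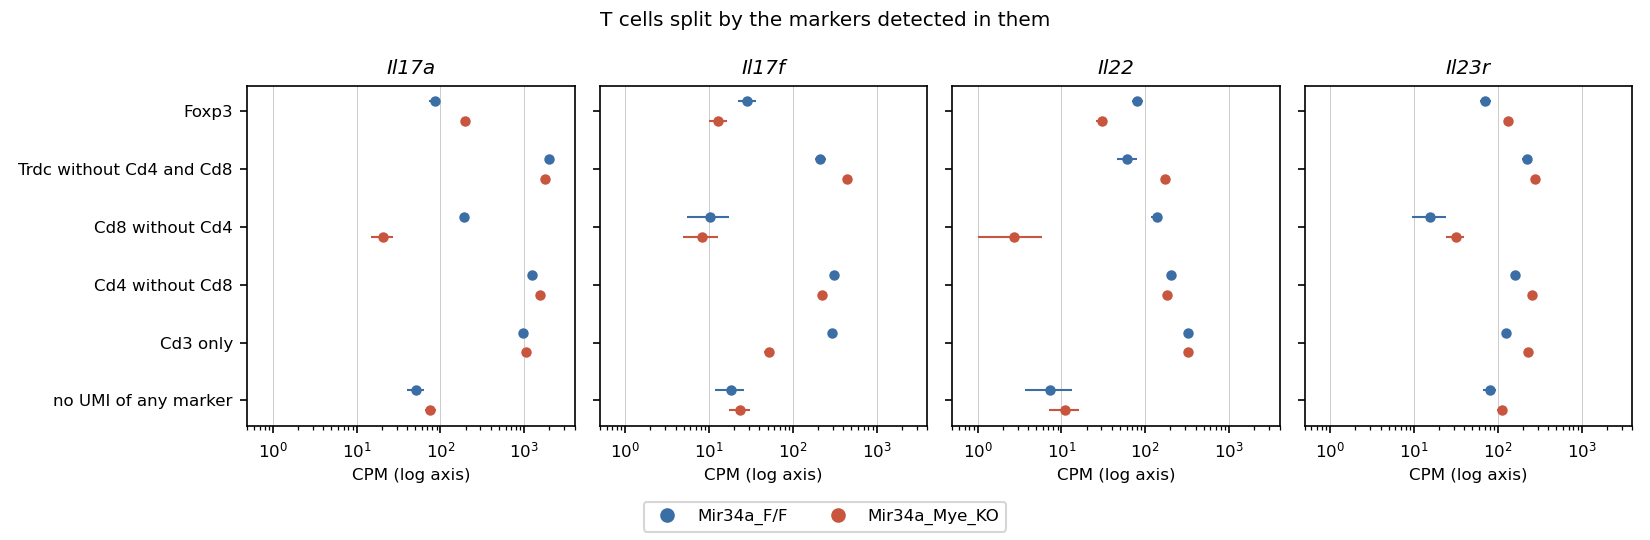
Level of *Il17a*, *Il17f*, *Il22* and *Il23r* in T cells split by detected markers, in CPM on a log axis, for the library labelled Mir34a_F/F (blue) and the library labelled Mir34a_Mye_KO (red), with bars for the 95% interval of counting error. *Il17a* is highest in *Trdc* cells at 1987 and 1772, whereas *Il22* is highest in cells with only *Cd3* genes at 328 and 322 and low in cells with no marker at 7.40 and 11.

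The 4 genes were found in the same T cells more often than the shares of cells alone would give. *Il17a* and *Il17f* were both detected in 257 and 229 T cells, where independent detection would give 83.7 and 85.1, and 74.1% and 80.6% of *Il17f* cells also had *Il17a*. *Il17a* and *Il22* were both found in 98 and 125 cells (independent 38.6 and 56.1), and 61.2% and 66.8% of *Il22* cells had *Il17a*. *Il17a* and *Il23r* shared 334 and 436 cells (independent 144 and 229). Deeper cells have more of every mRNA, and its part in these counts was not tested: T cells with *Il17a* had a median of 4536 and 9374 UMIs and those without 3257 and 7414. When 2 UMIs of each gene were required, *Il17a* and *Il17f* were both found in 167 and 167 cells, against 37.7 and 42.3.

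In the other direction, 34.5% and 28.8% of *Il17a* cells had a UMI of *Il17f*, and 13.2% and 15.7% had one of *Il22*. T cells with *Il17a* therefore included many without a detected molecule of the other cytokines at this depth. *Il12rb1*, which pairs with *Il23r* to form the IL-23 receptor, was detected in 108 and 292 T cells, and 33 and 131 of these also had *Il23r* (independent 20.8 and 84.1).

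**Figure D3:**
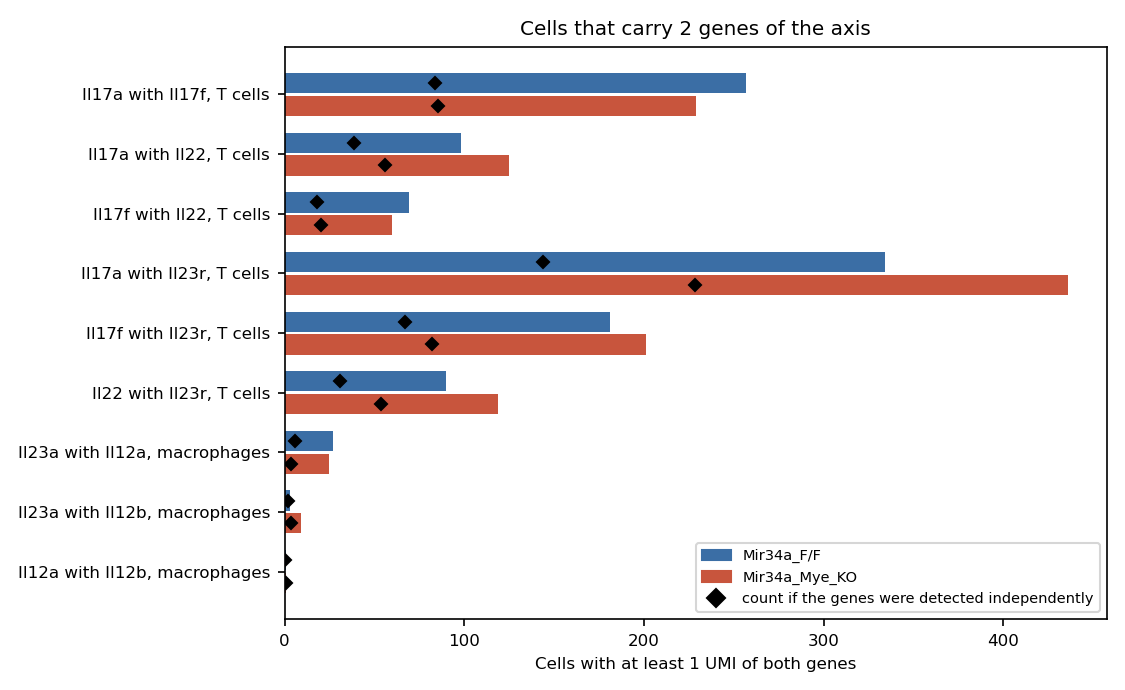
Cells with at least 1 UMI of both genes of a pair (bars, from 0) for the library labelled Mir34a_F/F (blue) and the library labelled Mir34a_Mye_KO (red), with diamonds at the count that independent detection would give. Pairs of *Il17a*, *Il17f*, *Il22* and *Il23r* in T cells lie above their diamonds, as for *Il17a* with *Il17f* at 257 and 229 against 83.7 and 85.1, whereas *Il23a* with *Il12b* in macrophages reaches 3 and 9 cells.

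Genes that stood out in T cells with a member are given as a description, since the member chose the cells. T cells with *Il17a* were compared with those without, and genes were ranked by the lower of the ratios in the 2 libraries. *Il17f* came first (log2 4.68 and 5.26), followed by *Ccl20*, the chemokine that binds CCR6 (2.83 and 3.54), *Trdv4*, a variable segment of the delta chain (2.64 and 2.61), *Blk*, a tyrosine kinase known from gamma-delta T cells that make IL-17 (2.70 and 2.53), and *Gldc*, an enzyme that degrades glycine (2.42 and 2.83). *Il22* was at rank 6, and *Gm9961*, *Fat3*, *Glyat* and *Gm12169* completed the 10. For *Il23r*, the 10 genes included *Il17f*, *Il17a*, *Blk* and *Il22* besides *4930447N08Rik*, *Gm12171*, *Gm9961*, *5830411N06Rik*, *Pde5a* and *Olfr60*.

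T cells with *Il22* had a different list. After its copy *Iltifb* came *Il17f* (2.20 and 2.09), *Cdh10*, a cadherin (1.98 and 1.94), and *Cd40lg*, the ligand of CD40 on helper T cells (1.94 and 1.60). *Il17a*, *Il23r*, *Lif*, a cytokine of the IL-6 family, *Gm49180*, *Olfr60* and *8030451A03Rik* completed it. Neither *Blk* nor *Trdv4* was among the 10. For each of the 3 genes, 9 of the 10 named genes were the same when 2 UMIs of the member were required.

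The *Trdc* and *Cd4* cells differed in genes of type 17 cells. *Blk* had 101 and 180 CPM in *Trdc* cells against 5.56 and 7.51 in *Cd4* cells. *Cd163l1*, a scavenger receptor of gamma-delta T cells, had 230.0 and 299 against 7.19 and 7.26, and *Zbtb16*, the factor PLZF of innate-like T cells, had 206 and 294 against 7.19 and 28.9. *Ccr6*, a chemokine receptor of type 17 cells, was the other way around with 7.52 and 18.9 in *Trdc* cells against 40.8 and 52.1 in *Cd4* cells.

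*Il23a*, which encodes the p19 subunit specific to IL-23, was highest in macrophages in both libraries among cell types with over 300 cells in each, as were 8.14% of the 18581 genes, but was not confined to myeloid cells. Macrophages had 646 and 1230 UMIs, or 33.2 (30.7 to 35.8) and 37.0 (35 to 39.1) CPM, with a log2 ratio of 0.16 (0.02 to 0.30). Epithelial cells, which had been set as the background for this gene, had 2115 and 1035 UMIs, or 22.4 (21.5 to 23.4) and 11.7 (11 to 12.4) CPM. Neutrophils had 105 and 301 UMIs, or 18.8 and 31.3 CPM. Epithelial cells thus held 68.2% and 36.0% of all *Il23a* UMIs and macrophages 20.8% and 42.7%. Of the UMIs of all genes, epithelial cells held 94415818 of 147109016 and 88662011 of 193133086, so these shares also follow total counts. Macrophages were 1.48-fold above epithelial cells in the library labelled Mir34a_F/F and 1.18-fold above neutrophils in the other, where the intervals of both cell types overlap. T cells had 9.40 and 6.09 CPM, and the part of free RNA in these levels was not tested. The 9 *Il23a* UMIs in 106 erythroid cells of the library labelled Mir34a_F/F gave 36.3 CPM, with an interval of 16.6 to 69.0 that holds the value of macrophages, and so did the interval of 22 to 60.5 around 37.8 CPM from 17 UMIs in 40 basophils of the other library.

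The library ratio of *Il23a* had opposite signs among these cell types. In epithelial cells it was -0.94 (-1.05 to -0.83), where the median of all 18353 genes with a ratio was -0.22, and in neutrophils it was 0.74 (0.41 to 1.07), where the median was -0.24. A UMI was found in 11.5% and 7.68% of epithelial cells, 6.65% and 11.8% of neutrophils and 9.51% and 8.80% of macrophages. After thinning these were 1.70% and 1.37% of epithelial cells, 1.66% and 2.23% of neutrophils and 2.46% and 2.04% of macrophages. Dendritic cells, a known source of IL-23, had 44 and 31 UMIs, or 15.1 and 4.81 CPM, and 24 of the 44 were in 1 cell. In macrophages the value rests on few cells, since the 10 richest held 32.0% and 45.8% of the UMIs, and the sign turned without them (-0.17) and by the mean over cells (-0.38). In epithelial cells the sign was negative in all alternatives, but the ratio shrank to -0.38 among cells with at least 500 expressed genes and under 10% mitochondrial UMIs. In the deposited data, epithelial cells had a median mitochondrial share of 11.2% and 18.3%, and its part in the result was not tested.

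Within macrophages *Il23a* varied with markers of macrophage states. In cells with *Arg1*, arginase 1, its level was 46.7 and 84.4 CPM, against 18.2 and 13.3 without, a log2 ratio of 1.36 (1.10 to 1.62) and 2.67 (2.48 to 2.86). In cells with *Mrc1*, the mannose receptor of resident and M2-like macrophages, it was 9.07 and 14 against 57.6 and 78.0 without. *Ly6c2*, a marker of monocytes, and *Ccr7*, a chemokine receptor of migrating cells, went with higher *Il23a* (log2 0.40 and 1.29 for *Ly6c2*, 0.75 and 1.51 for *Ccr7*). *Nos2*, a marker of M1-like macrophages, made less difference, with log2 0.22 (-0.05 to 0.49) and 0.69 (0.50 to 0.87). *Mrc1* cells, with the lower level, were the deeper ones (median 10915 and 18462 UMIs against 5854 and 6139.5).

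In epithelial cells *Il23a* was higher with *Lgr5*, the receptor that marks intestinal stem cells. The level was 39.3 and 22 CPM in 2202 and 1730 *Lgr5* cells, against 15.7 and 8.68 in the others, and the log2 ratio was 1.32 (1.2 to 1.45) and 1.34 (1.16 to 1.52). Cells with *Krt20*, a keratin of differentiated colonocytes, had 13.1 and 7.38 CPM against 29.4 and 15.8. *Mki67*, a marker of cycling cells, made little difference, with log2 ratios of -0.16 and -0.27. The order of the sets was the same in both libraries, although each level was lower in the library labelled Mir34a_Mye_KO.

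*Il12b*, the p40 subunit, was found mainly in dendritic cells, in which 7.55% of the 18581 genes were highest in both libraries. These had 367 and 822 UMIs, or 126 (113 to 139) and 127 (119 to 136) CPM, with a log2 ratio of 0.02 (-0.16 to 0.20) and 83.6% and 75.3% of all *Il12b* UMIs. After thinning to 1000 UMIs per cell the ratio was 1.49. Only 34 of 347 and 43 of 431 dendritic cells had a UMI (9.80% and 9.98%, and 2.89% and 5.10% after thinning), and 1 cell held 172 and 294 of the UMIs. In T cells, which served as background, 0 of 3088 cells in the library labelled Mir34a_F/F had a UMI, which allows a share of up to 0.0972% with a UMI when a count of 0 is taken to allow 3 counts, and 0.378% in the other had one. The level in dendritic cells was 46.2- and 19.8-fold that in macrophages, where 53 and 214 UMIs gave 2.72 and 6.44 CPM and a log2 ratio of 1.24 (0.80 to 1.70) from 18 and 40 cells. Of those in the library labelled Mir34a_Mye_KO, 1 macrophage held 71 of the 214 UMIs.

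In dendritic cells *Il12b* lay in cells with *Ccr7*. In the 152 and 192 dendritic cells with *Ccr7*, 338 of 367 and 780 of 822 UMIs were found, at 236 and 235 CPM against 19.6 and 13.4 in the others. Dendritic cells with *Ly6c2* had 9 and 6 UMIs of *Il12b*. *Il12a*, the p35 subunit that pairs with p40 to form IL-12, had all of its 11 and 31 UMIs in dendritic cells in those with *Ly6c2*. No dendritic cell had both *Il12a* and *Il12b*, where independent detection would give 0.69 and 1.80.

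The mRNAs of both IL-23 subunits were detected together in few cells. *Il23a* and *Il12b* were both found in 3 and 9 macrophages (independent 1.71 and 3.52) and 2 and 2 dendritic cells (1.76 and 2.69), and only 0 and 2 neutrophils had *Il12b* at all. *Il23a* was instead found with *Il12a* in 27 and 25 macrophages (independent 5.61 and 3.79), which was 45.8% and 58.1% of the macrophages with *Il12a*. At a capture of few molecules per gene, cells that make both subunits can be missed.

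**Figure D4:**
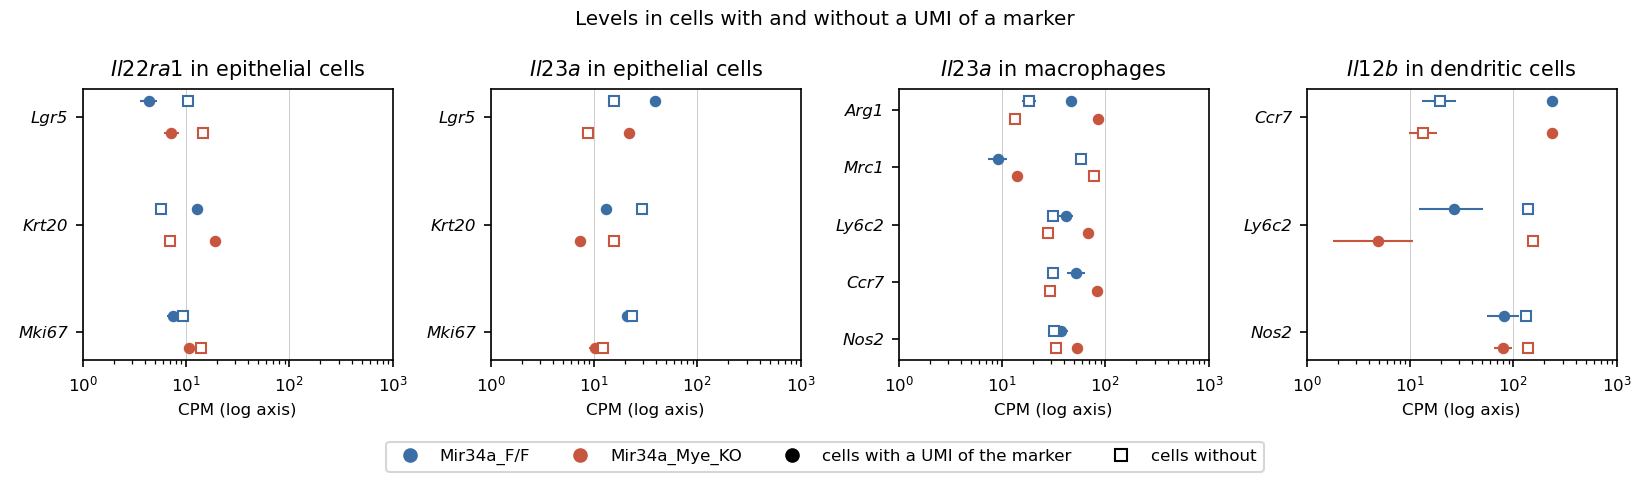
Levels in cells with (filled) and without (open) a UMI of a marker, in CPM on a log axis, for the library labelled Mir34a_F/F (blue) and the library labelled Mir34a_Mye_KO (red), with bars for the 95% interval of counting error. *Il22ra1* and *Il23a* move in opposite directions with *Lgr5* and *Krt20* in epithelial cells, *Il23a* in macrophages is high with *Arg1* (46.7 and 84.4) and low with *Mrc1* (9.07 and 14), and *Il12b* in dendritic cells is high with *Ccr7* (236 and 235).

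*Il17ra*, the receptor subunit shared by IL-17A and IL-17F, was found in all 11 cell types. Among cell types with over 300 cells in each library, mast cells had the highest level (as for 6.25% of the 18581 genes), 75.8 (66.7 to 85.9) and 71.1 (65.6 to 76.9) CPM, followed by macrophages with 62.6 and 63.8. The intervals of mast cells and macrophages overlap in the library labelled Mir34a_Mye_KO. Neutrophils had 51.7 and 55.0, T cells 50.3 and 51.5, B cells 40.3 and 28.9, dendritic cells 26.7 and 28.2 and epithelial cells 16.9 and 14. Each of these immune cell types had a higher level than the epithelial cells of the same library. Erythroid cells, the background here, had 20.2 (6.56 to 47.1) and 22.1 (4.56 to 64.6) CPM from 5 and 3 UMIs. These intervals hold the levels of epithelial, B and dendritic cells, and in the library labelled Mir34a_Mye_KO also those of T cells, neutrophils and macrophages, so too few UMIs were counted to set a background.

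The ratio of *Il17ra* between the libraries was close to 0 in several cell types. The interval of the log2 ratio held 0 in 5 of 7 cell types with a ratio, among them T cells (0.04, -0.10 to 0.17), macrophages (0.03, -0.07 to 0.13) and neutrophils (0.09, -0.12 to 0.30). The mean over cells gave -0.32 in macrophages and -0.48 in mast cells, and cells with only their own markers, few in number, gave 1.12 in T cells, -1.18 in neutrophils and -1.06 in mast cells. It did not in B cells (-0.48), where the median of all genes was -0.35, or in epithelial cells (-0.27, -0.38 to -0.17), and in the latter the sign turned among cells with modest mitochondrial share (0.01). Macrophages with *Ly6c2* had 104 and 115 CPM against 52.6 and 49.5 without, and those with *Mrc1* 44.9 and 49.95 against 80.5 and 88.5.

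*Il22ra1*, the subunit that gives cells their response to IL-22, was found mainly in epithelial cells, in which 26.5% of the 18581 genes were highest in both libraries. These had 824 and 1150 UMIs, or 8.73 (8.14 to 9.34) and 13.0 (12.2 to 13.7) CPM, which were 86.3% and 87.9% of all UMIs of the gene, with a log2 ratio of 0.57 (0.44 to 0.70). A UMI was found in 6.17% and 9.27% of epithelial cells, against 1.68% and 1.43% of T cells, the background. After thinning these were 1.16% and 1.06% of epithelial cells and 0.499% and 0.151% of T cells. Erythroid cells had 12.1 (2.5 to 35.4) and 7.37 (0.19 to 41) CPM from 3 and 1 UMIs, intervals that hold the levels of epithelial cells. The sign of the library ratio turned after thinning (-0.17), and the mean over cells gave 0.03, so the direction depended on the processing.

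*Il22ra1* was higher in epithelial cells with *Krt20*, at 12.7 and 19.2 CPM against 5.73 and 7.04 without (log2 1.15 and 1.45). It was lower in those with *Lgr5*, at 4.36 and 7.24 against 10.5 and 14.6 (log2 -1.26 and -1.02). This is the reverse of *Il23a* in the same cells, and it was seen in both libraries. *Il10rb*, the second subunit of the IL-22 receptor, and *Il17rc*, the partner of *Il17ra*, went the same way by less. *Il10rb* had log2 0.54 and 0.34 with *Krt20*, and *Il17rc* 0.52 and 0.39. *Il17ra* itself had -0.17 and -0.24 with *Krt20*. *Il22ra1* and *Il10rb* were both detected in 226 and 320 epithelial cells (independent 137 and 187).

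Between the libraries, a log2 ratio could be given for the 8 genes in 43 pairs of gene and cell type with at least 50 UMIs. The interval lay above 0 in 14, below 0 in 19 and held 0 in 10. The share of all genes with an interval off 0 was not counted, so these counts do not set the members apart. In T cells, 1 of 7 members with a ratio passed a log2 ratio of 1 in either direction, *Il22ra1* with 52 and 42 UMIs, where 3.5% of 13990 genes did. In macrophages 3 of 8 did, *Il23r*, *Il22* and *Il12b*, where 3.55% of 14412 genes did. In epithelial cells 2 of 8 did, *Il17f* and *Il12b*, where 4.46% of 18353 genes did, with 0.99 to 2.37 CPM of *Il17f* and 0.18 to 0.38 of *Il12b*. Over the alternatives these ran from -1.25 to -0.28 and from 0.74 to 2.45, and *Il22ra1* in T cells from -1.85 to -0.86. In neutrophils 2 of 6 did, *Il23r* and *Il17f*, where 4.45% did. Without the 10 richest cells of each library *Il17f* there had 2.68, since 140 of its 172 UMIs were in 1 cell, and *Il23r* 0.54, and *Il23r* had 0.069 after thinning. In B cells, where the libraries differ most in depth, 3 of 6 did, *Il17a*, *Il17f* and *Il22*, and 12.1% of all genes. None of these 3 passed it without the 10 richest cells of each library (-0.53, -0.30 and -0.22). In dendritic cells 2 of 4 did, *Il17a* and *Il23a*, beside 3.22%, and *Il17a* did in mast cells (1 of 3, beside 4.06%) and in fibroblasts (1 of 1, beside 8.81%). Without the 10 richest cells of each library *Il17a* had 0.64 in dendritic cells and -0.041 in mast cells, and *Il23a* in dendritic cells had -0.085. The median log2 ratio of the members was -0.40 in T cells, 0.23 in macrophages and -0.31 in epithelial cells, beside -0.11, -0.11 and -0.22 over all genes. Most pairs past the limit thus lay in cell types where the gene was sparse, and none was a gene in the cell type where it was highest.

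*Il23r* in macrophages, for example, had 49 and 230 UMIs (log2 ratio 1.46), in 31 and 96 cells, and its ratio was positive in 7 of 8 alternatives, from 1.26 as a mean over cells to 3.93 after thinning, where 1 and 17 cells had a UMI, and -0.27 in the 37 and 63 cells with markers of macrophages and none of other types. *Il22* in macrophages had 41 and 176 UMIs, and 76.7% of the latter were in 10 cells, so that the ratio was 0.59 without the richest cells of each library and 0.34 after thinning.

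**Figure D5:**
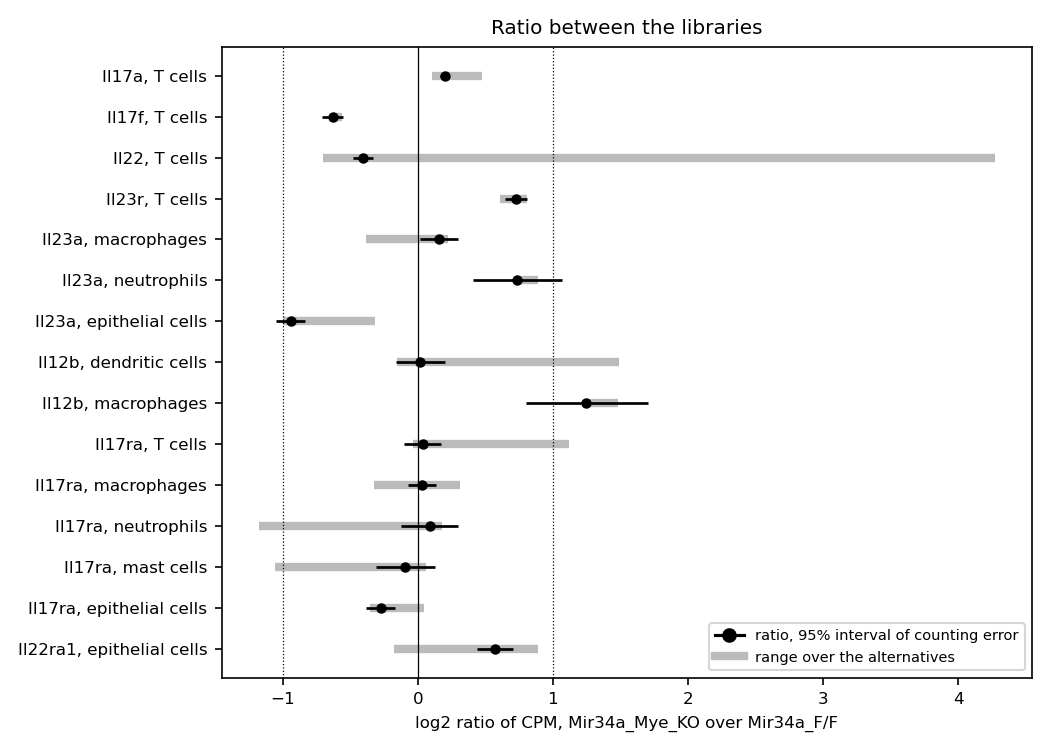
Log2 ratio of UMIs CPM, library labelled Mir34a_Mye_KO over library labelled Mir34a_F/F, for each member in the cell types it is mainly described in, with black bars for the 95% interval of counting error and grey bars for the range over other ways of processing. *Il23r* in T cells stays between 0.61 and 0.81 and *Il17f* in T cells between -0.63 and -0.56, whereas the range of *Il22* in T cells runs from -0.70 to 4.27, the last from 76 and 39 cells.

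Of the ligands, receptors, type 17 genes, signaling genes and inducers listed beside the members, 1 passed a log2 ratio of 1 in T cells, *Zbtb16*. Of 15 further ligands, receptors and subunits of the IL-17, IL-22 and IL-12 families, 10 had a ratio in T cells and 0 passed a log2 ratio of 1, with a median of 0.15, beside 3.5% and a median of -0.11 over all genes in T cells. The values were highest for *Il17rb*, the receptor of IL-25 (0.88 from 42 and 138 UMIs), *Il22ra2*, a soluble inhibitor of IL-22 (0.87 from 18 and 59 UMIs), *Il12rb2*, which pairs with *Il12rb1* in the IL-12 receptor (0.78), and *Il12rb1* (0.70), and lowest for *Il27* (-0.92). *Il25* and *Il17b*, further IL-17 family ligands, had at most 1 UMI in T cells of either library.

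All 14 genes of type 17 cells had a ratio in T cells, 12 of them above 0, with a median of 0.20. The median over all genes in T cells was -0.11, and the share of all genes above 0 was not counted. *Zbtb16* passed a log2 ratio of 1 with 614 and 2439 UMIs (1.15, 1.02 to 1.28). *Il1r1*, the receptor through which IL-1 drives IL-17, had 0.75 (0.65 to 0.85), *Irf4*, a factor of T helper differentiation, 0.72, and *Rora*, a nuclear receptor, 0.48. The 9 genes of IL-17 and IL-23 signaling had a median of 0.26 and none passed the limit. *Stat3*, which transmits IL-23 and IL-22, had 0.51 and *Jak2*, the kinase of the IL-23 receptor, 0.50. The 4 inducers in macrophages differed by less than 2-fold as well. *Il1b* had 2324 and 2829 CPM there (0.28), *Il6* 50.7 and 42.6 (-0.25), *Tgfb1* 0.19 and *Il18* 0.15.

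In macrophages 10 of the 15 family genes had a ratio, with a median of -0.21, and 1 passed the limit, *Il12rb1* (29 and 105 UMIs, 1.09). Over all genes in macrophages, 3.55% passed it and the median was -0.11. *Il12a* had 112 and 99 UMIs there (-0.95, -1.35 to -0.55). In epithelial cells 11 had a ratio, with a median of -0.17, and 0 passed the limit, beside 4.46% and a median of -0.22 over all genes. *Il17rc* (2080 and 1930 UMIs) and *Il10rb* (2806 and 2611 UMIs) had ratios of -0.02 and -0.01. *Il17c*, an IL-17 cytokine made by epithelial cells, had 186 and 224 UMIs (0.36).

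Epithelial genes known to respond to the cytokines had ratios on both sides of 0. Over all genes tested in epithelial cells, 4.46% passed a log2 ratio of 1 in either direction and the median was -0.22, and both lists are given beside these values. Of 12 genes known to respond to IL-17, 6 had a ratio above 0 and 6 below, with a median of -0.02, and 1 passed the limit. That gene was *Lcn2*, lipocalin 2, which binds bacterial siderophores, with 16231 and 4303 UMIs, or 172 and 48.5 CPM (-1.82, -1.87 to -1.78). As a mean over cells it did not pass the limit, and 0 genes of the list did. Of the chemokines for neutrophils, *Cxcl1* had -0.86, *Cxcl2* -0.54 and *Cxcl5* -0.35, and *Ccl20* had -0.54, none of them past the limit. *Pigr*, which carries IgA across the epithelium, had 0.30 and *Duox2*, an oxidase that makes hydrogen peroxide, 0.21.

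Of 12 genes known to respond to IL-22, 11 were in the table, 5 with a ratio above 0 and 6 below, with a median of -0.01. The limit was passed by *Saa3*, a serum amyloid A, with 593 and 262 UMIs (-1.09, -1.30 to -0.88), but not among cells with at least 500 expressed genes and under 10% mitochondrial UMIs, where 0 genes of the list passed it on the lower side. The antimicrobial lectins *Reg3g* and *Reg3b* had -0.74 and -0.43. *Saa1* and *Saa2* had 0.23 and 0.46, *Socs3*, the feedback inhibitor of STAT3, 0.40, and *Fut2*, which adds fucose to surface glycans, 0.26. Serum amyloids of 1 family thus differed in sign between the libraries.

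Across the 22 pairs of cell type and library, the pattern of each gene was compared with all genes that had at least 100 UMIs, as a description, since the points share libraries and depth. *Il17a* was most like *Sh2d2a*, a T cell adapter (Pearson r 0.90), *Il17f* (0.89), *Cd5*, *Fasl* and *Zhx2*. *Il17f* was most like *Il17a*, *Scrt1*, *Tctex1d1*, *Sh2d2a* and *Gm16158*, and *Il22* most like *Scrt1* (0.92), *Gm44174*, *Podnl1*, *Ly6g5b* and *Gm39323*. *Il23r* was most like *Pdcd1*, the inhibitory receptor PD-1 (0.97), *Gm12709*, *Rnf138*, *Rora* and *Sgip1*.

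*Il12b* was most like *Cd209a* and *Xcr1*, markers of different dendritic cell subsets (0.97 and 0.96), then *Cox6a2*, *Klri1* and *Cd300c*. *Il23a* had lower values, led by *Lyrm1* (0.81), *Plk1*, *Tnfsf13os*, *Il27* and *Plagl2*. Ranked within each library on its own, *Lyrm1* was at 143 and 108 and *Plagl2* at 37 and 729, so these genes were not the most alike in either. *Il17ra* was most like *Prkcb* (0.88), *Sema4d*, *Rac2*, *Gpr34* and *Cd53*, and *Il22ra1* most like *Akr1c19* (0.94), *Onecut2*, *Rnf39*, *R3hdml* and *B930018H19Rik*. Among the members, r was 0.86 for *Il17a* with *Il23r* and 0.82 for *Il17f* with *Il22*, but 0.11 for *Il23a* with *Il12b*, the subunits of 1 cytokine.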

How the data were processed

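Cells of 2 libraries were profiled with 10x Chromium 3′ v3.1 chemistry. Per the labels and the study's methods, the authors counted reads with Cell Ranger 7.2.0 against mm10, filtered cells on expressed mRNAs and mitochondrial content, used Scrublet against doublets and normalized in Seurat. The deposited values are on a natural log scale, as ln(1 + x), where x is the UMI count scaled to a sum of 10000 in each cell. The authors' annotation of library and cell type was used as given. Of the deposited cells, 2470 and 4130 had at least 25% mitochondrial UMIs, the limit stated in the methods, and they were kept.

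UMI counts were recovered by taking x back from the log and expressing it in units of the lowest nonzero x in the cell. All 96847573 nonzero values came out whole (largest deviation 1.5e-10). UMIs were summed over the cells of a type and divided by all UMIs of these cells (CPM). This level was used in place of a mean over cells because its counting interval then belongs to it, and the mean over cells was an alternative. Intervals at 95% were exact Poisson intervals for sums, exact binomial (Clopper-Pearson) intervals for shares and exact conditional binomial intervals for ratios, and UMIs are counted molecules, so these cover counting error only. A ratio was given for genes with at least 50 UMIs in a cell type over both libraries, and a gene was counted as past the limit from a log2 ratio of 1 in either direction. Where no UMI was found, 3 counts set the upper limit. Likeness used log2(CPM + 1). Cells were thinned to 1000 UMIs at random, and shallower cells left out. No test was made and no p-value computed. The calculations were tested on simulated data.

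Promoters and miRNAs came from RefSeq and gene positions and 3′ UTRs from GENCODE M21, both on GRCm38. The windows of *Il23a* and *Il17ra* were not used here. The members, the lists and the markers were chosen with earlier results of these data known. Genes named are the members, the listed genes, the 5 genes most like each member, and the 10 genes with the largest ratio in T cells with *Il17a*, *Il22* or *Il23r* among those with at least 20 UMIs there. Alternatives were the mean over cells, 2 filters on cells, another total, thinning, cells with their own markers only, 0.5 UMI added to each sum, and 2 UMIs as the limit of detection. Python 3.11.15 with numpy 2.4.6, scipy 1.17.1, pandas 2.3.3 and matplotlib 3.10.9 was used. A listed gene is not reported here, although counts and medians of its list include it.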

Additional observations from a re-analysis of the deposited data

Results flagged for a closer look

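Ratios of *Il17a* and *Il22* between the libraries differed among cell types in sign or size, and these differences were not tested. Against a log2 ratio of 0.20 in T cells, *Il17a* had 1.18 in mast cells (37 and 226 UMIs, 153 of the latter in 1 cell) and 3.44 in fibroblasts (7 and 169 UMIs, 148 in 1 cell). It had -1.08 in B cells (218 and 317 UMIs, 69.3% and 68.1% of them in 4 and 5 cells) and -1.92 in dendritic cells (82 and 48 UMIs, 59 of the former in 1 cell). Against -0.40 in T cells, *Il22* had 1.33 in macrophages (41 and 176 UMIs) and -3.04 in B cells (56 and 21 UMIs, 94.6% of the former in 10 cells). Without the 10 richest cells of each library these were 0.59 and -0.22.

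Within T cells, ratios in the sets split by markers stood apart from the ratio over all T cells, and these differences were not tested either. In *Trdc* cells, *Il17f* had 1.07 and *Il22* 1.5, where all T cells had -0.63 and -0.40. In *Cd8* cells, *Il17a* had -3.24 from 18 and 22 cells with a UMI, where all T cells had 0.20, and *Il22* had -5.65 from 5 and 3 cells.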

How the results depend on the processing

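No paired analysis was possible because each genotype has 1 library, and for the same reason no library could be left out. Of 15 main log2 ratios, 12 moved by less than their counting interval among cells with at least 500 expressed genes and under 10% mitochondrial UMIs, 13 with the filter of the methods, 8 after thinning, 9 as a mean over cells, 11 with another total and 15 with 0.5 UMI added. With own markers only, 3 of the 12 that had a value did, and the others moved by more. Among those, *Il22* in T cells and *Il17ra* in neutrophils changed sign. Where values changed, the cause was not tested. As a mean over cells, *Il22* in T cells was -0.52, *Il23a* in macrophages -0.38 and in epithelial cells -0.47, *Il17ra* in macrophages -0.32 and in mast cells -0.48, *Il22ra1* in epithelial cells 0.026, and 0 genes of the IL-17 list were lower past the limit. Among cells with at least 500 genes and under 10% mitochondrial UMIs, *Il22* in T cells was -0.48, *Il23a* in epithelial cells -0.38, *Il17ra* in epithelial cells 0.014, and 0 genes of the IL-22 list were lower past the limit. With the filter of the methods, *Il23a* and *Il17ra* in epithelial cells were -0.72 and -0.12. With a total that leaves out mitochondrial, immunoglobulin and ribosomal RNA-like genes, *Il17a* in T cells was 0.26, and in epithelial cells *Il23a* was -0.62, *Il17ra* 0.044 and *Il22ra1* 0.89. After thinning, *Il17a* and *Il22* in T cells were 0.10 and -0.70, *Il23a* -0.087 in macrophages and -0.32 in epithelial cells, *Il12b* in dendritic cells 1.49, *Il17ra* in macrophages -0.20 and *Il22ra1* in epithelial cells -0.17.

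Cells with their own markers and without those of other types left 76 and 39 T cells and 37 and 63 macrophages, too few for *Il12b* and for *Il23a* in macrophages. There, *Il17a* was 0.47, *Il22* 4.27, *Il23r* 0.61 and *Il17ra* 1.12 in T cells, *Il17ra* was 0.31 in macrophages, -1.18 in neutrophils and -1.06 in mast cells, and in epithelial cells *Il23a* was -0.81 and *Il22ra1* 0.44. Without the 10 cells with most UMIs of the gene in each library, an alternative chosen after seeing the data, *Il17a* in T cells was 0.28 and *Il23a* in macrophages -0.17.

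Some ratios outside the main ones turned as well. *Il17a* turned in epithelial cells to 0.48 as a mean over cells, 0.26 among cells with modest mitochondrial share, 0.39 after thinning, 0.56 with own markers and 0.21 without the richest cells. In macrophages it was -0.12 after thinning and -0.27 with own markers, in mast cells -1.85 with own markers and -0.041 without the richest cells, and without these 0.035 in neutrophils and 0.64 in dendritic cells. *Il22* in epithelial cells was 0.35 as a mean over cells, 0.97 after thinning, 0.75 with own markers and 0.44 without the richest cells. *Il17f* in neutrophils was 2.68 without the richest cells, *Il23a* in T cells 1.53 and *Il23r* in macrophages -0.27 with own markers, and *Il23r* in B cells 1.34 after thinning. Sparse genes rest on few molecules, such as *Il12b* with 53 UMIs in macrophages of the library labelled Mir34a_F/F. For the genes named as most like each member, r within 1 library over 11 cell types lay between 0.69 (*Plagl2* with *Il23a*) and 0.98 (*Cox6a2* with *Il12b*).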
